A study of Mus musculus with 3 samples.

Results

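The genes described here carry out the synthesis, elongation and desaturation of fatty acids in 3T3-L1 adipocytes, a cultured model of fat cells obtained by differentiating mouse fibroblasts of that line. With earlier results of these data known, 33 genes were chosen by their known function. Of these, 32 had a probe set that the platform annotation assigns to 1 gene, out of 18194 such genes on the array, and Scd4 was not measured. The 32 genes had 74 such probe sets. RNA was taken from 3 samples of adipocytes treated for 2 h with glucose oxidase, an enzyme that releases hydrogen peroxide as it oxidises glucose, and was measured on the mouse4302 Affymetrix array. No source used here gives the dose of the enzyme. All 3 samples shared this cell line and treatment and formed the only group, since control arrays were not analysed here. The values are therefore levels after treatment, and no change caused by glucose oxidase can be read from them. The sample labels name the tissue as preadipocytes and the source as insulin resistant adipose cells, whereas the growth protocol describes differentiated adipocytes. Whether each sample was a culture of its own is not stated, and the variation among the 3 may thus be only technical.

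Adipocytes can build fatty acids from glucose. Citrate leaves the mitochondrion and is cleaved to acetyl-CoA in the cytosol, acetyl-CoA carboxylase turns acetyl-CoA into malonyl-CoA, and fatty acid synthase joins these units into palmitate with NADPH as the reductant. Elongases then lengthen the chain and desaturases insert double bonds, which gives the mixture of acids that is stored as triglyceride. The transcription factors SREBP, encoded for this pathway by Srebf1, and ChREBP, encoded by Mlxipl, are known to drive many of these genes in response to insulin and glucose.

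The stretches of promoter below are shown because they hold letters of elements through which SREBP, ChREBP and their partner NF-Y are known to act, upstream of genes whose levels follow. They come from RefSeq on build GRCm38.p6, are written 5′ to 3′ on the strand of the gene, and lie at chr11:120824578-120824667 on the minus strand for Fasn, chr7:97417571-97417660 on the minus strand for Thrsp, and chr2:155517883-155518012 on the plus strand for Acss2. The pair from Mlxipl lie before different annotated starts, at chr5:135089710-135089809 and chr5:135106731-135106790, both on the plus strand. Capitals mark the CCAAT box in Fasn, Thrsp, Acss2 and the first Mlxipl stretch, the GC box as well in Acss2, the E-box as well in the first Mlxipl stretch, and the sterol regulatory element in the second.
Fasn: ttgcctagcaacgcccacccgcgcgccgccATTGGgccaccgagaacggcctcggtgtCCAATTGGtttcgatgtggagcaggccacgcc
Thrsp: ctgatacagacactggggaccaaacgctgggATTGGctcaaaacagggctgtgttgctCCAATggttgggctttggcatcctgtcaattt
Acss2: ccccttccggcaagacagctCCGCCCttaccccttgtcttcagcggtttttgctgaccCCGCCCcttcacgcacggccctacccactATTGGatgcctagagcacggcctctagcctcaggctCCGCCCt
Mlxipl, first start: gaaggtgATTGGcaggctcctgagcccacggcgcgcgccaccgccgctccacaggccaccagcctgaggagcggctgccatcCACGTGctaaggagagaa
Mlxipl, second start: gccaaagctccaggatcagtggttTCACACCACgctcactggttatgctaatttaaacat
Windows of 250 bases before to 50 bases after the start were held for 29 of the 33 genes, 36 windows in all, and were searched on both strands. The CCAAT box (CCAAT), which NF-Y binds, was in 19 of the 36 windows, or 52.8%, against 37.4% of all 32851 windows and 38.2% of those of protein-coding genes. In Fasn it occurred 3 times, with the last 2 matches overlapping in CCAATTGG, and in Thrsp 2 times. The GC box (GGGCGG), which the factor SP1 binds, was in 22 windows, or 61.1%, against 35.7% of all windows and 46.2% of those of protein-coding genes. The E-box CACGTG was in 5 windows, those of Elovl4, Elovl5, Hacd3, Mlxipl and Slc25a1, which is 13.9% against 7.15% of all windows. The sterol regulatory element TCACNCCAC was found only in the second Mlxipl window, which is 2.78% against 1.24% of all windows, and the TATA box TATAAA only in that of Acacb, which is 2.78% against 13.6% of all windows. These matches are descriptions of letters in the windows and were not tied to the intensities. Only the exact letters given were searched, so other forms of these elements were not counted. Elovl3, Fads1, Scd1 and Scd2 had no window in the table. In the RefSeq gene order, Fads1, Fads2 and Fads3 lie beside each other on chromosome 19 with no other protein-coding gene between them, as do Scd1, Scd2, Scd3 and Scd4, and 8 of the 33 genes are on that chromosome.

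Levels are given as log2 of the deposited intensity. The 84 probe sets for receptors of smell, pheromones and taste, assumed to be mostly silent in adipocytes, set the background at their 95th percentile, 7.58. A gene was called above background if any of its probe sets exceeded this in all 3 arrays. Its level was read from the brightest of its probe sets, and levels cannot be compared between genes, since probe sets differ in how strongly they hybridise. The median intensity was 126.88 to 127.63 across the arrays. Of 10 measured adipocyte markers, 9 were above background, among them Adipoq at 14.49 ± 0.03 (SD, n = 3), and Lep was not. Of 9 markers of preadipocytes and fibroblasts, 7 were above background, where 54.4% of all genes on the array were. Pdgfra was at 10.82, Pdgfrb at 10.60 and Dlk1 at 13.24, and Cd34 and Gata3 were not above background. These are levels of whole cultures, in which a smaller share of adipocytes and less RNA per adipocyte cannot be told apart.

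Most of the pathway was detected after glucose oxidase. Of the 32 measured genes, 28 were above background, or 87.5%, where 54.4% of all genes on the array were. The 4 genes not above background, Elovl2, Elovl3, Elovl4 and Elovl7, were all elongases. When each gene was given the median over its probe sets in place of the brightest, 26 of the 32 were above background, as Acacb was then at 7.47 and Elovl6 at 7.39. Under that rule 7973 of the 18194 genes on the array were above background, in place of 9899.

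**Figure D1:**
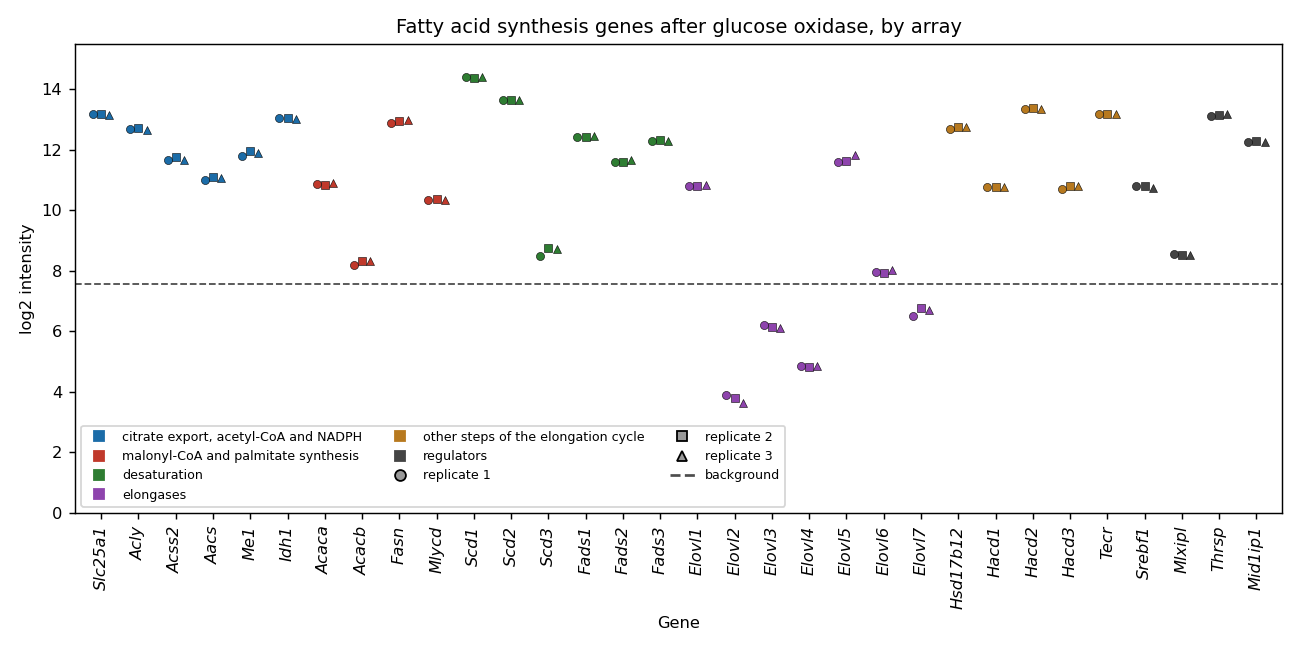
Log2 intensity (y axis) of the 32 measured genes (x axis) in replicates 1, 2 and 3 (circle, square and triangle), coloured by role, with background at 7.58 as a dashed line. The 4 genes below the line are elongases. Heights cannot be compared between genes.

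All 6 genes that supply cytosolic acetyl-CoA or NADPH were above background. Slc25a1, the mitochondrial citrate carrier, was at 13.18, 13.20 and 13.16 in replicates 1, 2 and 3. Acly, which encodes ATP citrate lyase and cleaves the exported citrate, was at 12.70, 12.73 and 12.67. In these probe sets the values lay within 0.06 of each other, with replicate 2 highest and replicate 3 lowest. The other Acly probe sets above background had replicate 1 lowest and replicate 3 highest, at 12.40, 12.46 and 12.47 and at 10.53, 10.67 and 10.69. Acss2, which makes acetyl-CoA from acetate, was at 11.66, 11.76 and 11.65, and replicate 2 stood about 0.1 above the others. Aacs, which activates acetoacetate for lipid synthesis, was at 11.01, 11.09 and 11.08. The NADPH-producing malic enzyme gene Me1 was at 11.80, 11.96 and 11.91, with replicate 1 lowest and an SD of 0.080, the largest in this group of 6. The cytosolic isocitrate dehydrogenase gene Idh1, also a source of NADPH, was at 13.04, 13.05 and 13.02. Both probe sets of Idh1 and the brightest of Acly are of a kind that can hybridise with transcripts of more than 1 gene, so these levels are less certain. Without such probe sets the Acly level was 12.45.

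The 4 genes around malonyl-CoA and palmitate were also above background. Fasn, which encodes fatty acid synthase, was at 12.90, 12.97 and 13.00. Its single probe set placed it 5.38 above background on the log2 scale. Acaca, the cytosolic acetyl-CoA carboxylase that feeds fatty acid synthase, was at 10.86, 10.84 and 10.90. Acacb, the form bound to the mitochondrion whose malonyl-CoA restrains fatty acid oxidation, was at 8.21, 8.34 and 8.32. It lay 0.71 above background, and its other probe set, at 6.64, was below it. Mlycd, the decarboxylase that removes malonyl-CoA, was at 10.33, 10.38 and 10.36, so the genes for making and for removing malonyl-CoA were both detected.

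All 6 measured desaturase genes were above background. Scd1, the main stearoyl-CoA desaturase of adipose tissue, was at 14.40, 14.39 and 14.40, near the highest value of any probe set in the arrays, 14.64. Whether such bright signals still rise in proportion to the transcript was not tested. Its second probe set was at 13.20, 13.30 and 13.28. Scd2, a stearoyl-CoA desaturase known for its role in brain and in early development, was at 13.64, 13.66 and 13.64. Its second probe set, at 12.07, 12.27 and 12.33, showed replicate 1 below the other arrays by at least 0.2, which the brightest probe set did not show. Scd3, known from skin and the Harderian gland, was at 8.49, 8.76 and 8.73, with the largest SD of the 28 genes, 0.148, and its other probe set was at 7.09, below background. The stearoyl-CoA desaturase genes are close paralogs, so the assignment of the Scd3 signal to that gene is uncertain.

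The front-end desaturases make polyunsaturated fatty acids from dietary precursors. Fads2, which performs the first desaturation step, was at 11.59, 11.60 and 11.66. Fads1, which acts after elongation of that product, was at 12.43, 12.42 and 12.46. Fads3, a related member of the family, was at 12.30, 12.32 and 12.30. For these 3 genes the arrays differed by at most 0.070 in the brightest probe set, and every one of their 8 probe sets was above background.

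Of the 7 elongases, 3 were above background and 4 were not. The share above background was 42.9%, where it was 54.4% of all genes on the array. Elovl1, which elongates saturated very long chains, was at 10.81, 10.81 and 10.85. Elovl5, which elongates polyunsaturated chains, was at 11.59, 11.64 and 11.82, and replicate 3 stood above replicate 2 by 0.179 and further above replicate 1. The second Elovl5 probe set was at 11.53, 11.50 and 11.62, with replicate 3 again highest but replicate 2 lowest. It is of the kind that can hybridise with transcripts of more than 1 gene. Elovl6, the enzyme that elongates palmitate to stearate, was at 7.96, 7.92 and 8.02, only 0.39 above background, and its other probe sets, at 7.39 and 5.59, were below it. With the 99th percentile of the receptor probe sets as background, 8.04, Elovl6 was not above background. Elovl2 and Elovl4, which lengthen polyunsaturated chains in tissues such as liver, testis and retina, were at 3.77 ± 0.13 and 4.86 ± 0.01 (SD, n = 3). Elovl3, known from brown fat and skin, was at 6.15 ± 0.05 (SD, n = 3). Elovl7, which elongates saturated chains, had 6 probe sets, the highest at 6.66 ± 0.14 (SD, n = 3), and none was above background.

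The 5 genes of the list for the other steps of each elongation cycle were all above background, in 11 of 11 probe sets. Hsd17b12, the ketoacyl-CoA reductase, was at 12.70, 12.76 and 12.76. The hydroxyacyl-CoA dehydratase genes Hacd1, Hacd2 and Hacd3 were at 10.77 ± 0.01, 13.36 ± 0.02 and 10.78 ± 0.06 (SD, n = 3). Tecr, the enoyl-CoA reductase that closes the cycle, was at 13.18, 13.19 and 13.19. These steps are part of the cycle whichever elongase begins it. In the brightest probe set of each gene the arrays differed by at most 0.102, and in the second probe set of Hsd17b12 by 0.218, with replicate 1 lowest.

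Among the regulators, Srebf1 was at 10.80, 10.82 and 10.75. Mlxipl was at 8.56, 8.52 and 8.54, which is 0.96 above background, and each of these factors had 1 probe set. Thrsp, which encodes the lipogenic protein Spot 14, was at 13.12, 13.14 and 13.20. Mid1ip1, whose product binds acetyl-CoA carboxylase and promotes its polymerisation, was at 12.26, 12.30 and 12.26. All 4 regulators were above background, and none had an SD above 0.041. A level of the Srebf1 transcript says nothing of how much SREBP protein was cleaved and active.

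A gene's level depended strongly on the probe set. Of the 24 genes with more than 1 probe set, the means of 19 spanned more than 1 on the log2 scale, and the median span was 2.50. Spans were not computed over all genes, so these values cannot be read as a trait of the pathway. The widest span, 9.69, was in Acly, where 3 probe sets were above background and 3, with means of 3.01 to 6.13, were not. Thrsp spanned 4.80 and Fads1 4.32 with all of their probe sets above background. Over all 74 probe sets, 53 were above background, where 45.2% of all probe sets with 1 gene were. The calls for genes with a single probe set, such as Fasn, Srebf1 and Mlxipl, could not be set against another.

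**Figure D2:**
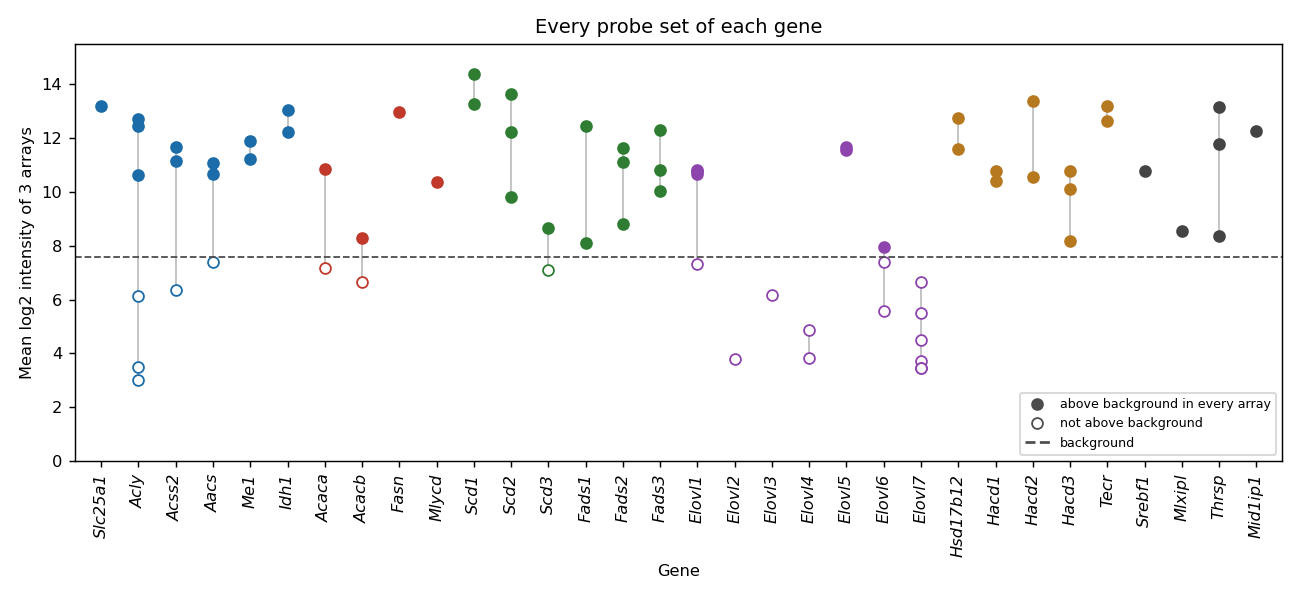
Mean log2 intensity over 3 arrays (y axis) of all 74 probe sets, by gene (x axis), filled where the probe set was above background in every array and open where it was not, with background at 7.58 as a dashed line. Acly spans 9.69 between its probe sets, and 4 elongases have only open symbols.

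The arrays differed little for these genes. The median SD of the 28 genes above background was 0.028 on the log2 scale, against 0.048 for all 9899 genes above background. The SD was lower at higher levels, and 24 of the 28 genes had a level over 10. For those 24 the median SD was 0.026, against 0.040 for the 3637 genes above that level. Scd3 and Elovl5 were the 2 genes with an SD over 0.1, a limit that 8.46% of all genes above background passed. The difference in spread was not tested, and it narrowed to 0.035 against 0.048 with the median over probe sets. In probe sets above background other than the brightest of their gene, the median SD was 0.0545 for the 25 from the fatty acid synthesis genes and 0.0563 for all 5900.

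**Figure D3:**
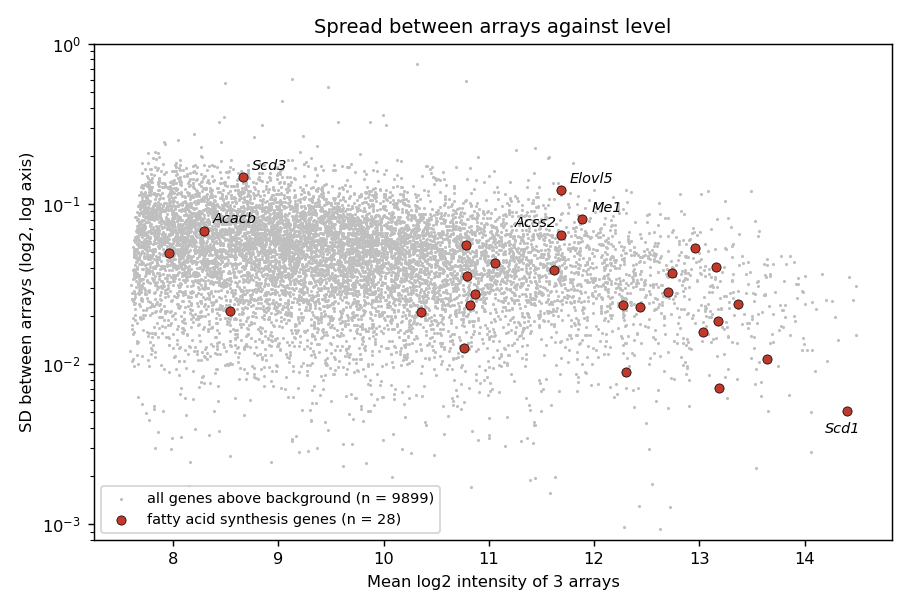
SD between the 3 arrays (y axis, log scale) against mean log2 intensity (x axis) for 9899 genes above background (grey) and the 28 fatty acid synthesis genes among them (red). Scd3 and Elovl5 have the widest spread of the 28. The SD of 0.005 for Scd1 is from a probe set near the top of the scale, and that of its second probe set, not plotted, is 0.055.

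Replicate 1 gave the lowest value for many of these genes. It was lowest for 16 of the 28 genes, where it was lowest for 44.7% of all genes above background, and it was highest for 1 gene, Mlxipl, where it was highest for 23.7%. Replicate 2 was highest for 14 genes, against 35.5% of all, and lowest for 5, against 24.9%. Replicate 3 was highest for 13, against 40.8%, and lowest for 7, against 30.4%. The differences were small, with replicate 2 above replicate 1 by a median of 0.024 and replicate 3 above it by a median of 0.029. Over all genes above background both medians were 0.021. The related lists below were counted in the same way, over genes above background. Replicate 1 was lowest for 5 of 7 genes of NADPH supply and 7 of 12 of lipogenic enzyme control. The count was 9 of 15 for SREBP and LXR regulation and 4 of 8 for mitochondrial fatty acid synthesis. For acyl-CoA synthetases it was 2 of 5, and for cholesterol synthesis 5 of 17. Among the 53 probe sets above background, 31 were lowest in replicate 1, where 47.4% of all such probe sets were. The widest departures of replicate 1 were in the probe sets of Scd3 and Scd2 given above and in the second probe sets of Hsd17b12, at 11.45, 11.65 and 11.67, and of Aacs, at 10.53, 10.71 and 10.73. Of the 18 genes with more than 1 probe set above background, 7 had the same lowest array in each of them. This was not counted over all genes, so whether 7 of 18 is high or low cannot be told. With the arrays quantile normalized, replicate 1 was lowest for 15 of the 28 genes and highest for 3. It was lowest for 19 of 28 on centring and for 18 of 26 with the median over probe sets. The shares of all genes were not computed under these settings, so whether these counts are high or low cannot be told.

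Other measures also differed between the arrays, and their part in this pattern was not tested. The ratio of 3′ to 5′ signal of the actin control probe sets, a sign of RNA quality, was 1.70, 1.585 and 1.54 in replicates 1, 2 and 3, and that of Gapdh was 1.11, 1.14 and 1.10. All 7 preadipocyte and fibroblast markers above background were lower in replicate 2 than in replicate 1, with a median difference of -0.12. Of the 9 adipocyte markers above background, 3 were higher in replicate 2 than in replicate 1, as were 61.8% of all genes above background.

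**Figure D4:**
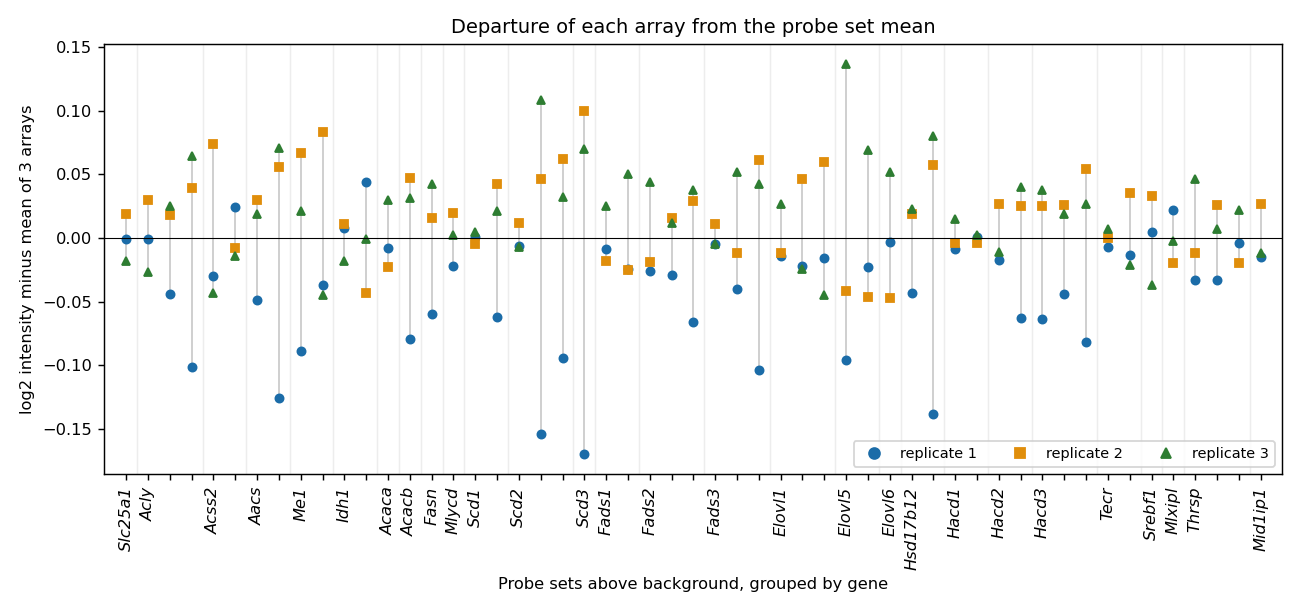
Log2 intensity of each array minus the mean of the 3 arrays (y axis) for the 53 probe sets above background (x axis, grouped by gene and ordered by mean within a gene), with replicates 1, 2 and 3 as circles, squares and triangles. Replicate 1 is lowest in 31 of the 53, and most departures are under 0.1.

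Most genes of the lists around the pathway were above background as well. Of 15 measured genes of SREBP and LXR regulation, all were above background, among them Srebf2, the SREBP gene for cholesterol synthesis, at 9.90 ± 0.10, Scap, the escort of SREBP, at 10.36 ± 0.02, and Insig1, which retains that escort in the endoplasmic reticulum, at 11.10 ± 0.01 (SD, n = 3). Of 8 genes that supply NADPH by other routes, 7 were above background, with Pgd of the pentose phosphate pathway at 12.10 ± 0.03 (SD, n = 3), and the mitochondrial malic enzyme gene Me3 was not. Of 7 acyl-CoA synthetase and fatty acid transporter genes, 5 were above background, and Acsl6 and Acsm3 were not. Acsl6, at 7.57, lay at the background level itself. Of 13 genes that control the lipogenic enzymes, such as the subunits of AMP-activated kinase, 12 were above background. The exception, Prkaa2, which encodes a catalytic subunit of that kinase, was at 7.25 ± 0.02 (SD, n = 3), while the other catalytic subunit gene Prkaa1 was at 8.92 ± 0.07 (SD, n = 3). All 8 measured genes of the list for mitochondrial fatty acid synthesis, a separate pathway that makes the precursor of lipoic acid, were above background. The list also holds genes for making and attaching lipoic acid itself. With the median over probe sets, 5 of the 8 were above background.

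**Figure D5:**
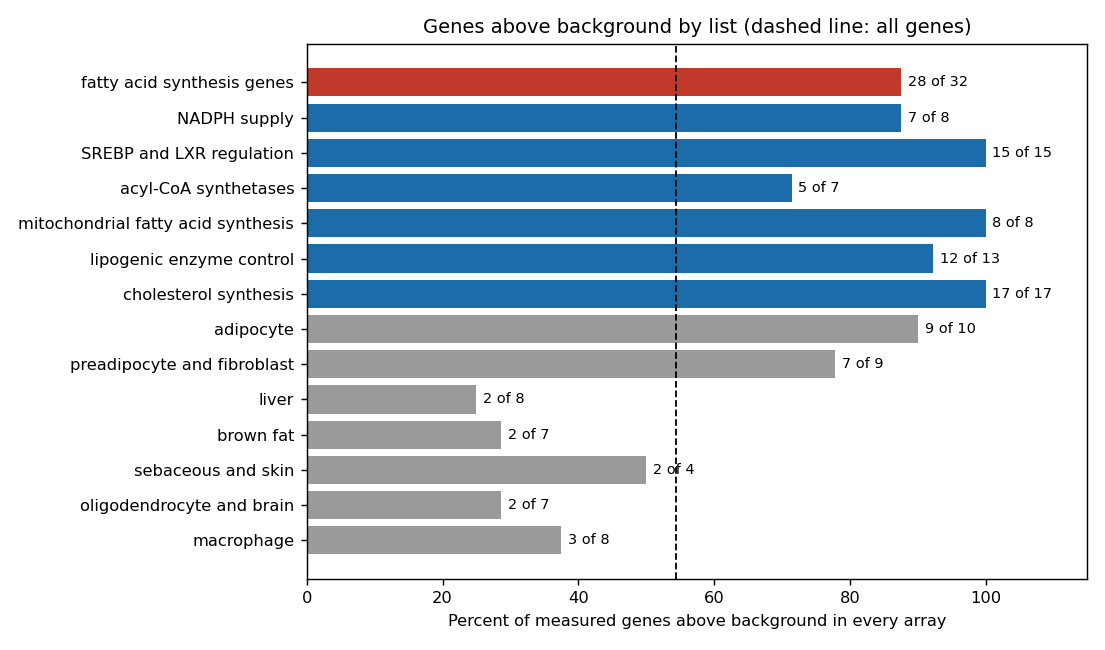
Percent of measured genes above background in every array (x axis) for the fatty acid synthesis genes (red), 6 related lists (blue) and 7 cell type marker lists (grey), with counts beside the bars and the share of all genes, 54.4%, as a dashed line. The bar of the fatty acid synthesis genes stands at 28 of 32.

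SREBP proteins also drive the genes of cholesterol synthesis. All 17 measured genes of that list were above background. Replicate 3 was lowest for 11 of the 17, against 7 of the 28 fatty acid synthesis genes and 30.4% of all genes, and replicate 2 was highest for 12 of the 17, against 14 of the 28. For replicate 3 minus replicate 2 the median was -0.07 for cholesterol synthesis and -0.0037 for fatty acid synthesis. Hmgcs1, which acts at the start of that pathway, was at 12.60, 12.62 and 12.60 in replicates 1, 2 and 3. The kinase genes Mvk and Pmvk were at 10.42, 10.53 and 10.41 and at 10.89, 10.99 and 10.79. The difference between the lists was not tested.

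Markers of other tissues that make fatty acids or use the undetected elongases were mostly not above background, where 54.4% of all genes were above it. The count was 2 of 8 for liver genes (Ttr and Hnf4a) and 2 of 7 for brown fat genes (Ppargc1a and Cox8b). Among those not above background, the albumin gene Alb was at 6.61 ± 0.12 and Ucp1 at 6.17 ± 0.04 (SD, n = 3). The brown fat list includes Elovl3 itself. The count was 2 of 4 for sebaceous gland and skin genes, near the share of all genes, and 2 of 7 for oligodendrocyte and brain genes. For macrophage genes it was 3 of 8, with Cd14 at 8.83, Csf1r at 8.70 and Lyz2 at 11.19. Adgre1 at 6.67, Cd68 at 6.56, Itgam at 5.60, Ptprc at 4.64 and Cd163 at 3.90 were not above background. With the median over probe sets, the liver count and the oligodendrocyte and brain count were both 0, and some calls above background thus rest on 1 probe set among several.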

How the data were processed

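The authors processed the mouse4302 arrays with RMA background correction and normalization in affyPLM, per the methods, which give no version. The deposited values are probe set intensities on a linear scale. They were converted to log2 without further change, and any scaling or centring after RMA stays unknown. Of 45101 probe sets, 34958 carried 1 gene name, 932 carried several and 9211 carried none, and 34754 of the first kind matched the RefSeq genes of GRCm38.p6 by Entrez identifier, with 0 symbols changed. The 3 samples form 1 group, so no test was run, and the number of arrays limits the precision. The gene list and the other lists were chosen with earlier results of these data known. All 33 genes are named. From the other lists, the first 3 genes above background and those not above it could be named. Alternatives set background at percentiles 99 and 90 or from keratin-associated protein and defensin genes, and tried the median over probe sets, no cross-hybridising probe sets (suffixes x and s), centring, quantile normalization, a pseudocount of 16, all measured genes, and leaving out each array. The gene table was tested on simulated data. Python 3.11.15 with pandas 2.3.3, numpy 2.4.6 and matplotlib 3.10.9 was used.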

Additional observations from a re-analysis of the deposited data

How the results depend on the processing

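No paired analysis was possible because there was only 1 group. The number of fatty acid synthesis genes above background, 28, was 26 to 28 under the alternatives in which it was counted, which leave out the pseudocount of 16 and the setting with all measured genes. The median of probe sets gave 26, where the count over all genes fell from 9899 to 7973. For the fatty acid synthesis genes it was 27 with the 99th percentile, against 8699 of all genes. It was also 27 without probe sets that can cross-hybridise, against 9508 of all genes, when Idh1 has none left. The median SD of the fatty acid synthesis genes, 0.028, was 0.035 with the median of probe sets and also without probe sets that can cross-hybridise. It was 0.029 on centring, 0.030 with quantile normalization, 0.032 over all measured genes and 0.024 to 0.026 on leaving out each array. The number lowest in replicate 1, 16, was 15 with quantile normalization and up to 19 on centring. The number highest in replicate 1 was 3 with the median of probe sets, with quantile normalization and over all measured genes. The number lowest in replicate 3 was 4 with the median of probe sets. With that median, mitochondrial fatty acid synthesis fell to 5 genes, brown fat to 1, and liver and oligodendrocyte and brain to 0. Without probe sets that can cross-hybridise, liver and oligodendrocyte and brain were at 1 each. Oligodendrocyte and brain was at 0 with the 99th percentile and with the keratin-associated protein and defensin background, 1 on centring, and 1 to 2 on leaving out each array. The cause of these shifts was not tested. Of the 32 levels, 11 moved by more than 1.5-fold with the median of probe sets and 2 with the pseudocount of 16, Elovl2 to 4.89 and Elovl4 to 5.49. Signal close to background limits the calls for Elovl6 and Acacb.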

Other observations

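The annotation held 1 further probe set for a gene of the list that it assigns to several genes, shared by Acss2 and Gssos2, and it was left out of the counts. It was at 5.50, 5.58 and 5.44 in replicates 1, 2 and 3, below background.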
